A study of Mus musculus with 12 samples.

Results

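The peroxisome proliferator-activated receptors, the retinoid X receptors and the PGC1 coactivators were examined as one group of 8 genes: Ppara, Ppard and Pparg for the PPARs, Rxra, Rxrb and Rxrg for the RXRs, and Ppargc1a and Ppargc1b for the coactivators. Members were taken by gene symbol from the platform annotation, and 8 of 8 were measured among 22180 genes. Each was read by 1 transcript cluster, a set of short probes summarised into 1 value. A further cluster carries Ppard together with a neighbouring transcript and was kept apart. RNA came from livers of 6 Ppara KO and 6 WT mice, all adult females of 12 to 14 weeks on the C57Bl/6 background, housed in a 12-hour light cycle, with 1 array per animal. No treatment is named. The labels name neither the knockout allele nor the time of day or feeding state at collection. Values are log2 values of the RMA method, so 1 unit is a doubling of signal. The number of arrays limits the precision, and values of different genes cannot be set against each other because their probes differ.

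PPARs are nuclear receptors that sense fatty acids and their derivatives. Each pairs with an RXR, the receptor partner that also serves many other nuclear receptors, and the pair binds DNA at repeats of a short receptor motif. PPARα drives fatty acid oxidation in hepatocytes, PPARγ drives fat storage and is best known from adipocytes, and PPARδ is found in many tissues, where it also favours fatty acid oxidation. PGC-1α and PGC-1β dock onto such receptors and raise transcription of genes of mitochondria, and PGC-1α also of gluconeogenesis.

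Ppard and Pparg, the receptor genes that differed most, moved in opposite directions. Their promoter windows are shown so that the starts of these transcripts can be read. The windows come from RefSeq (build GRCm38.p6), run 5′ to 3′ from 250 bases before to 50 bases after a transcript start, and were available for 7 of the 8 genes, 12 windows in all. Pparg has 3 of them, of which the 2 with a match are printed. Capitals mark the receptor motif AGGTCA on either strand.
Ppard, chr17:28232504-28232803, strand +: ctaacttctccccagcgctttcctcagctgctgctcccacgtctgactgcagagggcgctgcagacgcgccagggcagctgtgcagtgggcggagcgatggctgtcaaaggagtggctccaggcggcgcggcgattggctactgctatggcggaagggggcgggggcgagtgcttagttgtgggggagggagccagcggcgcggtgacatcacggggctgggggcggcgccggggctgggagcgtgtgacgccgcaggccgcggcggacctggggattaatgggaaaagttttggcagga
Pparg, first start, chr6:115360894-115361193, strand +: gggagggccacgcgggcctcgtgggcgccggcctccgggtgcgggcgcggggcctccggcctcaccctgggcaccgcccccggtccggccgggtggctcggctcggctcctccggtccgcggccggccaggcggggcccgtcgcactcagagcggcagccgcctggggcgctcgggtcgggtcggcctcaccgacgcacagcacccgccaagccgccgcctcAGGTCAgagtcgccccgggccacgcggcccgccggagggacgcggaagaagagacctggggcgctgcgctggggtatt
Pparg, second start, chr6:115362099-115362398, strand +: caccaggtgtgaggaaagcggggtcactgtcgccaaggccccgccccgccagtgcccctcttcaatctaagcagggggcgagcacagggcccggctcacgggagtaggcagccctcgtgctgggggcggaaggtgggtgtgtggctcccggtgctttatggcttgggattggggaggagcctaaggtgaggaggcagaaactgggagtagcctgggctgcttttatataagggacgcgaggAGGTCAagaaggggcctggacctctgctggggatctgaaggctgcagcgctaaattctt
The motif was found once in each of the printed Pparg windows, beginning 28 and 9 bases before the start, and not in the Ppard window. It was also found in 1 Rxra window, at 2 places, and in 1 Rxrg window, both genes that did not pass the test, so 4 of the 12 windows held it. Over 32851 RefSeq windows of the same length, 16.3% held it on either strand. The PPAR element DR1, searched as a direct repeat of that motif with any 1 base between the copies and so overlapping it, was in 0 of the 12 windows and in 0.0396% of all windows. The clock motifs CACGTG (E-box) and TTATGTAA (D-box), searched on both strands, were also in 0 of the 12, against 7.15% and 0.938% of all windows. A match is only a run of letters, and a missing match says nothing about binding elsewhere.

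Of the 8 genes, Ppard fell and Pparg and Ppargc1b rose in Ppara KO livers, while Ppara, Rxra, Rxrb, Rxrg and Ppargc1a did not pass the test. A gene was called at a Benjamini-Hochberg adjusted p under 0.05 in a limma fit over 22180 genes, and 10.2% of all genes were called, 4.46% higher and 5.77% lower in Ppara KO. The values of the genotypes did not overlap in 3 members, the same 3 that were called, and in 6.51% of all genes. The small number of members leaves little to read from their share.

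**Figure D1:**
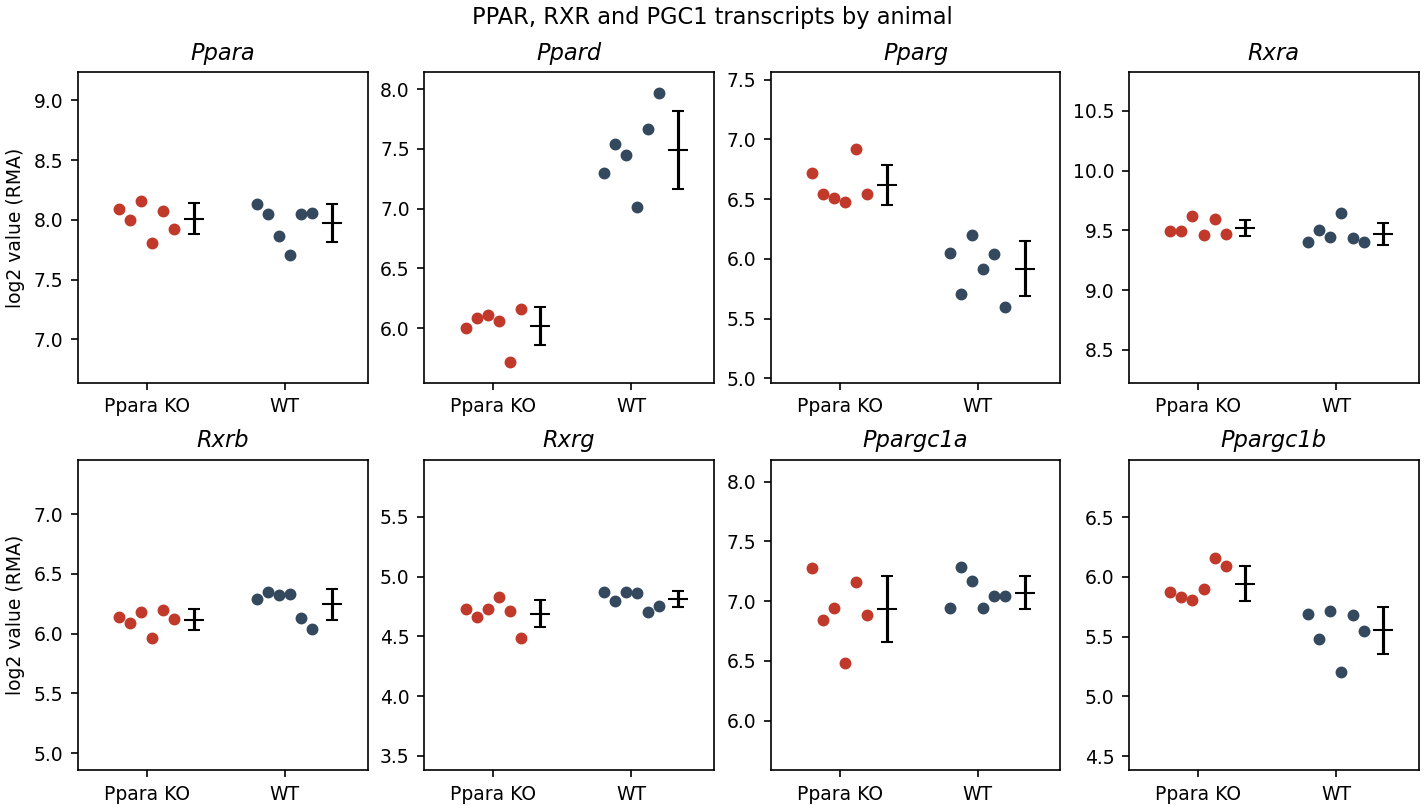
Log2 value of the 8 genes in each animal, Ppara KO left and WT right in each panel; points are animals, bars are mean and SD, and every panel has the same vertical span. Ppard lies lower and Pparg and Ppargc1b lie higher in every Ppara KO animal, and the other 5 genes overlap between genotypes.

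Ppara itself, the disrupted gene, had 7.81, 8.04 and 8.16 as the lowest, median and highest value in Ppara KO livers, against 7.71, 8.05 and 8.14 in WT livers. The groups overlapped over nearly their whole ranges. Its difference, Ppara KO minus WT, was 0.032 ± 0.085 (log2, limma SE; 95% interval -0.15 to 0.21; adjusted p 0.882). The sources do not say whether its probes lie inside the disrupted part, so this signal does not check the genotype labels. Of 22 known PPARα targets 10 fell, 2 rose and 10 were not called, while 5.77% of all genes were called lower and 4.46% higher. The largest fall was that of Cyp4a14, a fatty acid omega-hydroxylase, which averaged 4.82 ± 0.98 in Ppara KO and 10.41 ± 0.44 in WT livers (SD, n = 6 each).

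Ppard encodes PPARδ. Its lowest, median and highest values were 5.71, 6.07 and 6.16 in Ppara KO livers and 7.01, 7.49 and 7.97 in WT livers. All 6 Ppara KO animals lay below all 6 WT animals, with a gap of 0.85 between the highest Ppara KO and the lowest WT value. Ppard was 2.76-fold lower in Ppara KO (difference -1.47 ± 0.13; limma adjusted p 4.28e-06), and it ranked 39 by size among the falls of all genes. The gap between genotypes was wide against the spread within them (SD 0.16 in Ppara KO and 0.33 in WT, n = 6 each). The cluster that Ppard shares with the transcript 1810013A23Rik had 4.63 ± 0.25 in Ppara KO and 4.82 ± 0.31 in WT livers and was not called (adjusted p 0.570 in a limma fit over all 41345 clusters). Which part of the gene each cluster reads was not checked here.

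The fall of Ppard was not shared by the genes beside it. Of the 5 measured genes on either side in the RefSeq gene order, 0 fell and 1 rose, Fkbp5, a glucocorticoid-induced co-chaperone gene (6.55 in Ppara KO and 5.99 in WT, adjusted p 0.00982). The other 9 had differences between -0.098 and 0.051. Fance, the next gene after Ppard, had a difference of -0.0012 ± 0.13, and Def6, the one before it, of -0.098 ± 0.12. The share called over all genes was 10.2%, and these neighbours were looked up after the fall of Ppard had been seen.

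Pparg encodes PPARγ. Its values were 6.48, 6.55 and 6.92 (lowest, median, highest) in Ppara KO livers and 5.60, 5.98 and 6.20 in WT livers. Every Ppara KO animal lay above every WT animal, with a gap of 0.27. The rise was 1.63-fold (difference 0.70 ± 0.11; limma adjusted p 6.74e-04). Transcripts from different Pparg starts share this 1 value.

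Adipocyte markers were set beside Pparg, since it is best known from those cells. The mean log2 value of 8 measured markers (Adipoq, Lep, Plin1, Retn, Cidea, Fabp4, Plin4 and Lipe) was 4.19 to 4.44 in Ppara KO and 4.45 to 5.89 in WT livers, and 0 of the 8 rose while 3 fell: Adipoq, which encodes adiponectin, Plin4, of the lipid droplet coat, and Lipe, of a triglyceride-breakdown lipase. The other 5 were not called, and over all genes 10.2% were called in either direction. Without WT 1, 3 and 5 the calls of Adipoq, Plin4 and Lipe ended (0 of 8 called, with a limma adjusted p of 0.218 for Lipe). The mean marker difference had to shrink there, because the animals left out hold the highest marker means, so the lost calls are no test. With fewer animals, calls over all genes also dropped, from 989 higher and 1279 lower to 390 and 618. WT 1, 3 and 5 had marker means of 5.16, 5.89 and 5.81, above the 4.49, 4.45 and 4.70 of WT 2, 4 and 6. They also had the highest Pparg values among WT animals, 6.05, 6.20 and 6.04 against 5.70, 5.91 and 5.60. Without WT 1, 3 and 5 the Pparg difference was 0.88 (limma adjusted p 0.00121), a value that had to exceed 0.70 because these animals hold the highest WT values. The part of adipocytes in the Pparg difference was not tested. In whole liver, a change in the number of cells of a type and a change in RNA per cell cannot be told apart. Means of endothelial, stellate and macrophage markers overlapped between genotypes, and 0 of their 21 genes were called. Of 4 cholangiocyte markers Krt19 and Sox9 fell, calls that ended without any 1 of 6 and 8 animals (WT 2, 3 and 6 and Ppara KO 1 to 3 for Krt19; every animal but WT 3 and Ppara KO 1, 3 and 5 for Sox9). Hepatocyte markers averaged 11.22 to 11.41 in Ppara KO and 11.25 to 11.36 in WT livers, with 1 of 9 called (Tdo2, higher).

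**Figure D2:**
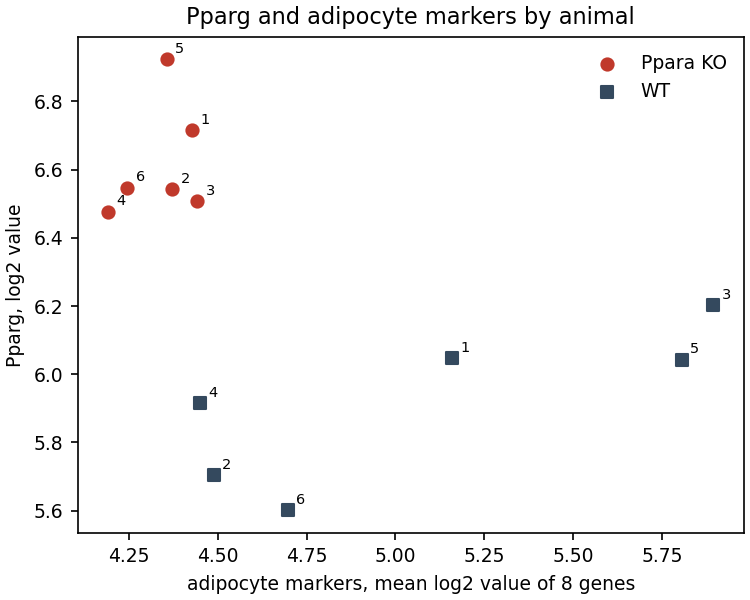
Log2 value of Pparg (vertical) against the mean log2 value of 8 adipocyte markers (horizontal) in each animal, numbered by replicate, Ppara KO as circles and WT as squares. The Ppara KO animals are high in Pparg at marker means of 4.19 to 4.44, and WT 1, 3 and 5 lie to the right with Pparg values of 6.04 to 6.20.

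Among the RXRs, Rxra had 9.46, 9.49 and 9.62 (lowest, median, highest) in Ppara KO livers and 9.40, 9.44 and 9.65 in WT livers. All 6 Ppara KO values lay inside the WT range and above the WT median. The difference was 0.049 ± 0.064 (95% interval -0.087 to 0.18; adjusted p 0.721), an interval that holds no change larger than 1.14-fold. RXRα is the main RXR of hepatocytes.

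Rxrb, the gene of the widely expressed RXRβ, had 5.96, 6.13 and 6.20 in Ppara KO livers against 6.04, 6.31 and 6.35 in WT livers (difference -0.13 ± 0.072, 95% interval -0.28 to 0.027, adjusted p 0.325). Rxrg encodes RXRγ, known mainly from muscle and brain. Its values were 4.49, 4.72 and 4.83 in Ppara KO livers and 4.71, 4.83 and 4.87 in WT livers (difference -0.12 ± 0.067, 95% interval -0.26 to 0.025, adjusted p 0.323). For both genes all 6 Ppara KO animals lay below the WT median, the ranges overlapped, and neither was called. The deposited table has no detection call, so whether Rxrg stood above background is not known.

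The coactivator genes differed from each other. Ppargc1b, which encodes PGC-1β, had 5.81, 5.88 and 6.16 in Ppara KO livers and 5.20, 5.61 and 5.71 in WT livers. The genotypes did not overlap, but by a margin of only 0.095. It was 1.31-fold higher (difference 0.39 ± 0.096; limma adjusted p 0.0166), and the call ended at an adjusted p under 0.01. Ppargc1a, which encodes PGC-1α, had 6.48, 6.92 and 7.28 in Ppara KO livers and 6.94, 7.04 and 7.29 in WT livers. Its Ppara KO values were spread more widely (SD 0.28 against 0.14 in WT, n = 6 each), with Ppara KO 4 lowest and Ppara KO 1 highest, and the difference of -0.14 ± 0.11 was not called (adjusted p 0.529). The interval of that difference, -0.38 to 0.10, leaves room for a fall to 0.766 of the WT level.

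**Figure D3:**
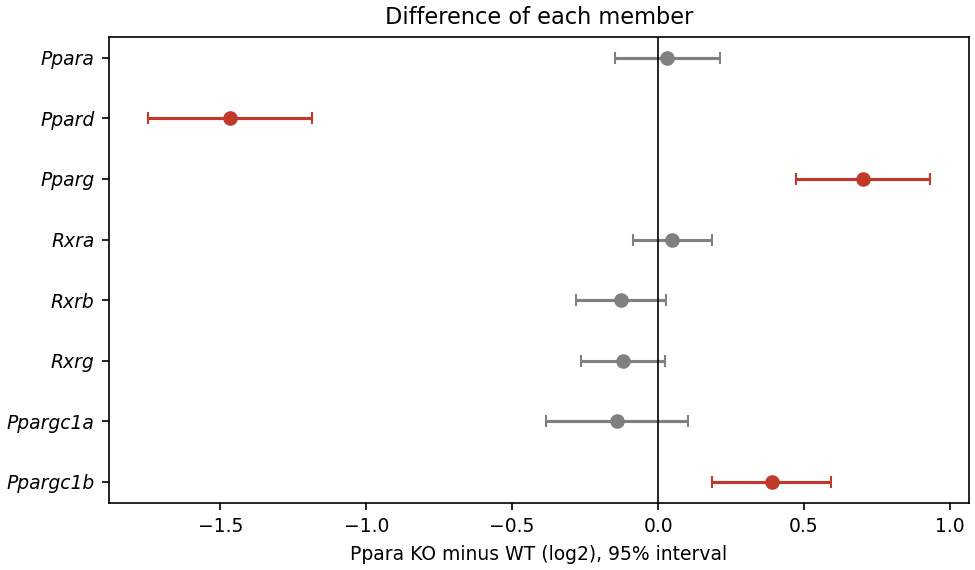
Difference of each gene, Ppara KO minus WT, in log2 units (horizontal) with its 95% limma interval; red marks called genes and grey those not called. Ppard lies at -1.47, Pparg at 0.70 and Ppargc1b at 0.39, and the intervals of the other 5 genes include 0.

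The Ppara signal that persists in Ppara KO livers varied between animals, and the next question was whether Ppard and Pparg followed it. Each animal's value was taken as a deviation from its genotype mean, since a pooled correlation would hold the genotype difference. Over the 12 animals, Ppard had a Pearson r of 0.35 with Ppara (Spearman rho 0.33; permutation within genotype, 2-sided p = 0.330 and 0.343; 0.770 and 0.951 after Benjamini-Hochberg adjustment over 7 relations). The coefficient was -0.28 in Ppara KO and 0.62 in WT animals (n = 6 each; exact permutation p 0.597 and 0.210), and rho was -0.14 in Ppara KO and 0.43 in WT. Without the 2 animals farthest in Ppara of the 6 in each genotype, r was -0.72 in Ppara KO and -0.66 in WT, where the sign turned. Coefficients on so few animals say little, here and below. The coefficient over all 12 rested on WT 4 and Ppara KO 4, the animals farthest from the median in Ppara, and without them it was -0.061.

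Pparg had an r of 0.012 with Ppara over the 12 animals (rho -0.056; permutation p 0.975 and 0.878; adjusted 0.975 and 0.958). Within the genotypes r was 0.42 in Ppara KO and -0.24 in WT animals (n = 6 each; exact permutation p 0.419 and 0.678), with rho of 0.31 and -0.086. Without the 2 farthest animals of each genotype it was 0.76 in Ppara KO and 0.50 in WT, where the sign turned, and without WT 4 and Ppara KO 4 the coefficient over the remaining animals was -0.20. No relation of either gene with Ppara passed the test, so tracking by animal was not detectable with 12 animals, and a weak relation cannot be told from none. For scale, the middle 95% of 11089 genes at or above the median level had r between -0.65 and 0.63 with Ppara by the same measure. Ppard stood at percentile 84.1 and Pparg at percentile 52.3 of those genes.

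**Figure D4:**
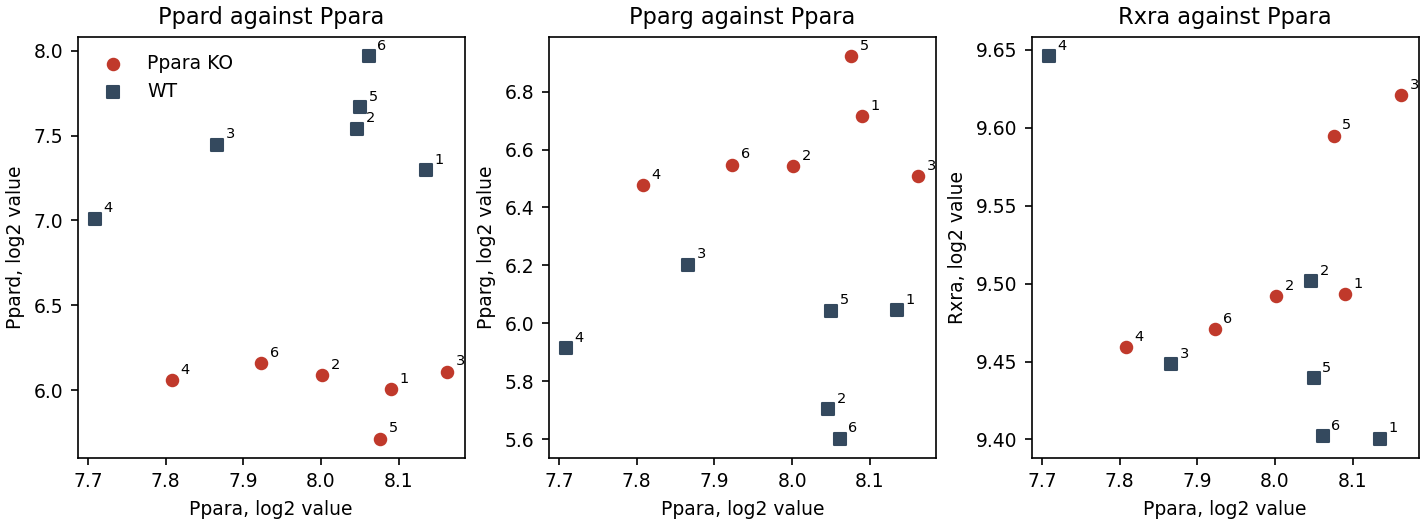
Log2 values of Ppard, Pparg and Rxra (vertical) against Ppara (horizontal) in each animal, numbered by replicate, Ppara KO as circles and WT as squares. The Ppara values of the genotypes overlap while Ppard and Pparg form separate bands, and Rxra runs with Ppara among Ppara KO animals and against it among WT animals.

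Of the 7 other members, 0 had a relation with Ppara over the 12 animals at an adjusted or an unadjusted permutation p under 0.05. Ppargc1a came nearest, with an r of 0.50 (rho 0.35; permutation p 0.0932 and 0.270; adjusted 0.653 and 0.951), which was 0.013 without WT 4 and Ppara KO 4. Within genotypes, Rxra ran in opposite directions, with a rho of 0.94 in Ppara KO and -0.94 in WT animals (n = 6 each; exact permutation p 0.0167 in each; adjusted 0.117 over 14 relations). Its Pearson r was 0.80 in Ppara KO and -0.84 in WT animals (exact permutation p 0.0597 and 0.0347; adjusted 0.228 each), and 0.60 and -0.62 without the 2 animals farthest in Ppara of each genotype. Rxrb had an r of 0.88 in Ppara KO animals (rho 0.77; exact permutation p 0.0181 and 0.103; adjusted 0.228 and 0.360) and of -0.42 in WT animals (exact permutation p 0.422). Without the 2 farthest animals of each genotype these were 0.56 in Ppara KO and 0.28 in WT, where the sign turned. None of these within-genotype relations passed the adjustment, and the difference between the genotypes was not tested.

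Ppard and Pparg had an r of -0.58 with each other over the 12 centred animals, given here as a description. The coefficient rested on 2 animals chosen after their values were seen: it was -0.47 without Ppara KO 5, -0.36 without WT 6 and -0.027 without both. Among the 6 Ppara KO animals r was -0.92, and -0.60 without Ppara KO 5. Among the 6 WT animals it was -0.47, and 0.037 without WT 6. Ppara KO 5 had both the lowest Ppard value, 5.71, and the highest Pparg value, 6.92, and WT 6 had the highest Ppard value, 7.97, and the lowest Pparg value, 5.60. Ppard also ran against Rxrb (r -0.70) and Rxra (r -0.63), and Pparg ran with Ppargc1b (r 0.51). Ppara KO 5 was again the highest Ppara KO animal in Ppargc1b, at 6.16. Among WT animals, WT 4 had the lowest Ppard and the highest Rxra value, 7.01 and 9.65. WT 6 had the highest Ppard and the lowest Rxrb value, 7.97 and 6.04. These coefficients are among the largest of several pairs and were not tested. For the pairs other than Ppard with Pparg, no animals were left out.

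The genes whose centred values over the 12 animals were most like those of Ppara were Rpl38, a ribosomal protein gene (r 0.93), Mef2a, a transcription factor gene (r 0.90), Pam16, of the mitochondrial import motor (r 0.90), Naxe, of NAD(P)HX repair (r 0.88), and Nsmce2, a SUMO ligase gene (r 0.87). For Ppard they were Nab1, a corepressor gene of EGR factors (r 0.87), Reps2 (r 0.86), Serpina1b, an antitrypsin gene (r 0.85), Bicra, of a chromatin remodelling complex (r 0.84), and Rad51d, a DNA repair gene (r 0.84). For Pparg they were Abhd17b, a depalmitoylase gene (r 0.97), Lsp1, a leukocyte actin-binding protein gene (r 0.86), Antxr1, a collagen-binding receptor gene (r 0.85), Pmp22, a myelin protein gene (r 0.85), and Myl9, a smooth muscle myosin light chain gene (r 0.84). Of these 15 genes only Nab1 was called (7.79 in Ppara KO and 7.51 in WT, limma adjusted p 0.0188), beside 10.2% of all genes. The strongest opposite runs were Mettl23 (r -0.88), Kmo (r -0.87) and Cyb5d2 (r -0.87) for Ppara, Commd4 (r -0.94), Smpdl3b (r -0.90) and Col6a2 (r -0.89) for Ppard, and Zeb1 (r -0.88), Nmb (r -0.87) and Zgpat (r -0.86) for Pparg. Among these opposite runs only Nmb was called (4.88 in Ppara KO and 5.19 in WT, limma adjusted p 0.0340). All animals contribute to each such coefficient, and the coefficients were picked as the highest and lowest of many genes.

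Clock genes also differed between the genotypes. Of 19 measured, 13 rose, 4 fell and 2, Cry1 and Rora, were not called, beside 10.2% of all genes called. A clock score, the mean of 8 genes driven through E-boxes minus the mean of Arntl, Npas2 and Clock, was 0.98 to 2.63 in Ppara KO and -3.01 to -2.50 in WT livers. The score genes were chosen with earlier results of these data known. All 8 rose and the other 3 fell, so the choice of genes set this separation and it is no test. Clock state and genotype cannot be told apart for Ppard, Pparg and Ppargc1b. Within genotypes the members did not follow the score detectably: of 16 relations 0 passed an exact permutation test by r or by rho, adjusted or not. The highest was Ppargc1a in WT animals, with an r of 0.75 (rho 0.60; n = 6; exact permutation p 0.0833 and 0.242; adjusted 0.957 and 0.803), and it was 0.67 without the 2 animals farthest in the score.

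Among other proteins that PPARs use, 2 of 17 coregulator genes fell and 1 rose, beside 10.2% of all genes called in either direction. Helz2, a PPAR coactivator gene, had a difference of -0.61 ± 0.10 (limma adjusted p 0.00131), Nrip1, the gene of the corepressor RIP140, of -0.35 ± 0.088, and Pprc1, the third member of the PGC1 family, of 0.32 ± 0.082. The acetyltransferase gene Crebbp (-0.071 ± 0.069), Cited2 (-0.21 ± 0.13) and the coactivator gene Ncoa2 (-0.083 ± 0.056) were not called. The median difference of the list was -0.071, against 0.0090 over all genes. Without WT 1, 3 and 5 the calls of Nrip1 and Pprc1 ended, in a setting with fewer animals. Over all genes it gave 390 calls higher and 618 lower, against 989 and 1279 with all animals.

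Of 12 other receptors that pair with an RXR, 1 rose and 1 fell, beside 10.2% of all genes called in either direction. Nr1i3, the gene of the xenobiotic receptor CAR, averaged 10.29 ± 0.13 in Ppara KO and 9.54 ± 0.08 in WT livers (SD, n = 6 each; difference 0.75 ± 0.071; limma adjusted p 8.11e-06). Thra, a thyroid hormone receptor gene, had a difference of -0.35 ± 0.095 (adjusted p 0.0302), a call lost when any 1 of these was left out: WT 1, WT 2, WT 5, Ppara KO 2, Ppara KO 3 or Ppara KO 5. The bile acid receptor gene Nr1h4 (0.16 ± 0.065), Nr1i2, the gene of PXR (0.23 ± 0.077), and Thrb (0.13 ± 0.084) were not called. The median difference of these 12 was 0.11.

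Partners and modifiers of the PGC1 proteins had 3 rises and 2 falls among 19 genes, beside 10.2% of all genes called. Their median difference was 0.063. Esrrg, an orphan receptor gene coactivated by PGC1 proteins, was 1.69-fold lower, at 4.54 ± 0.11 in Ppara KO and 5.30 ± 0.25 in WT livers (SD, n = 6 each; limma adjusted p 2.86e-04). Kat2a, the gene of the acetyltransferase GCN5, which acts on PGC-1α, had a difference of -0.24 ± 0.056. Both catalytic AMPK subunit genes rose, Prkaa2 by 0.35 (SE 0.071) and Prkaa1 by 0.28 (SE 0.073), as did Yy1 (0.25 ± 0.065). The calls of Kat2a, Yy1 and Prkaa1 ended without WT 1, 3 and 5, and that of Prkaa1 also without WT 6 or Ppara KO 2. Leaving out WT 1, 3 and 5 also cut the calls over all genes, from 989 higher and 1279 lower to 390 and 618. Hnf4a (0.12 ± 0.071), Mef2a (0.14 ± 0.071) and Srebf1 (0.20 ± 0.15) were not called.

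Genes that PGC1 proteins drive in mitochondria and gluconeogenesis had 4 rises and 2 falls among 17, beside 10.2% of all genes called. Their median difference was 0.019, and Ppargc1b is one of the rises. Alas1, the first enzyme of haem synthesis, was 2.31-fold higher, at 11.05 ± 0.23 in Ppara KO and 9.84 ± 0.43 in WT livers (SD, n = 6 each; limma adjusted p 2.97e-04). Tfb2m and Tfb1m, genes of related mitochondrial transcription and ribosomal RNA methylation factors, moved apart, with differences of 0.38 ± 0.085 and -0.38 ± 0.091. The gluconeogenic genes also moved apart, Pck1 by 0.30 (SE 0.086) and G6pc by -0.61 (SE 0.17), and their calls were fragile, each ending without any 1 of 7 animals. For Pck1 they were WT 1, 3 and 6 with Ppara KO 1, 2, 5 and 6. For G6pc they were every WT animal but WT 5, with Ppara KO 1 and 6. The calls of Tfb2m and Tfb1m ended without WT 1, 3 and 5, where calls over all genes dropped from 989 higher and 1279 lower to 390 and 618. The respiratory chain genes Atp5b (0.019 ± 0.054) and Uqcrc2 (0.058 ± 0.058) and the antioxidant gene Sod2 (0.30 ± 0.096) were not called.

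Targets of the receptors fell more often than they rose, while 5.77% of all genes were called lower and 4.46% higher. Of 22 PPARα targets 10 fell and 2 rose, with a median difference of -0.52. The falls named by the rule were Cyp4a14, Vnn1, the pantetheinase gene (-3.91 ± 0.16), Retsat, the retinol saturase gene (-1.69 ± 0.092), and Cpt2, of mitochondrial fatty acid import (-0.90 ± 0.074). Fabp1 (-0.011 ± 0.090), Hadha (-0.18 ± 0.071) and Cpt1a (0.23 ± 0.086) were not called. Of 14 genes known as PPARγ targets in fatty liver and adipocytes 5 fell and 0 rose, with a median difference of -0.56. Pparg rose while 0 of these genes were called higher. Acaa1b is also on the PPARα list, so the lists are not separate, and the output of PPARγ itself was not tested. Pltp, the phospholipid transfer protein gene, averaged 8.77 ± 0.23 in Ppara KO and 9.58 ± 0.22 in WT livers (SD, n = 6 each; limma adjusted p 4.34e-04). The other falls were Plin4 (-0.68 ± 0.16), the fatty acid translocase gene Cd36 (-0.52 ± 0.14), Adipoq (-0.92 ± 0.26) and Lpl, the lipoprotein lipase gene (-0.65 ± 0.19). Fabp4 (-1.34 ± 0.49), Me1 (-0.35 ± 0.16) and Acaa1b (-0.24 ± 0.16) were not called. Several of these genes are adipocyte markers and are high in WT 1, 3 and 5, and without those animals 1 of the 14 stayed called, Pltp. Leaving out the animals with the highest marker values had to shrink such differences, so these lost calls are no test. Over all genes the same setting gave 390 calls higher and 618 lower, against 989 and 1279 with all animals. Single animals also ended calls: Cd36 without Ppara KO 2, Adipoq without WT 3 or Ppara KO 1, 2, 3 or 6, and Lpl without WT 1, 2, 3 or 5 or any of Ppara KO 2 to 6.

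**Figure D5:**
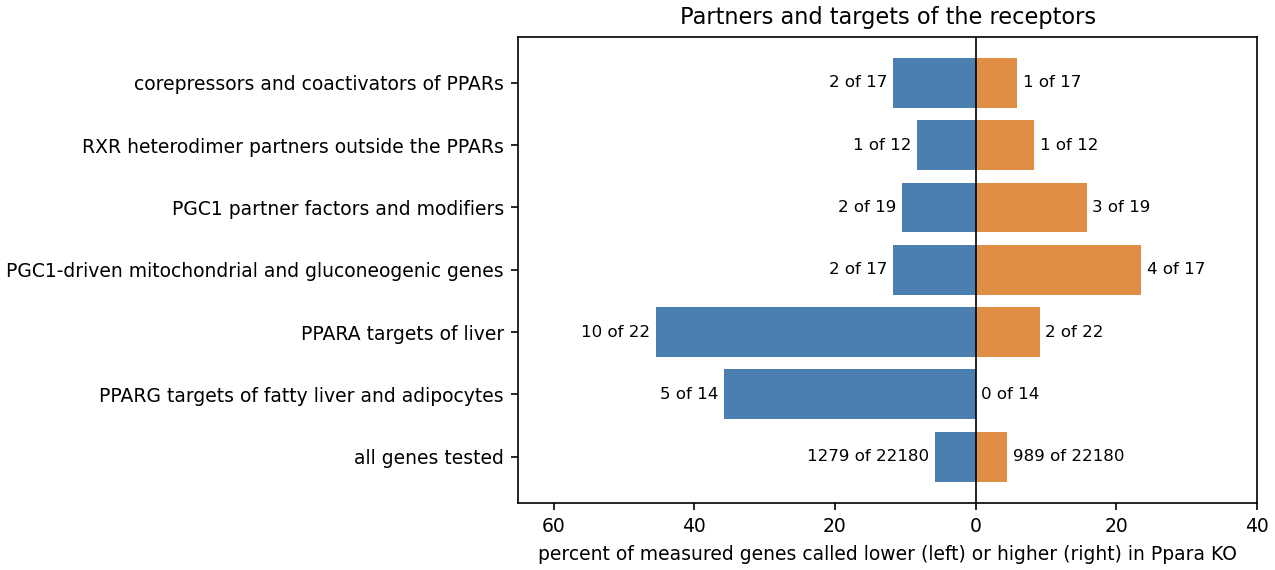
Percent of the measured genes of each list called lower (left, blue) or higher (right, orange) in Ppara KO, with the counts beside the bars. PPARα targets and PPARγ targets lean to the left, with 10 of 22 and 5 of 14 lower, while the coregulator and RXR partner lists have 1 or 2 calls on either side.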

How the data were processed

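Livers of 6 Ppara KO and 6 WT mice were measured on Affymetrix MoGene 2.0 ST arrays, 1 per animal. The authors' deposited values are log2 expression, made with RMA and Partek, per the submitters' processing notes, without versions. RMA removes background, equalises the arrays and combines probes, so a shift shared by most genes would not show and differences of dim genes are compressed. Array medians ran from 4.13 to 4.17. The table held 41345 clusters, of which 23521 had 1 symbol, 1814 several and 16010 none listed. The brightest cluster over the 12 arrays stood for a gene, which left 22180 genes.

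Genes were fitted with limma 3.58.1 in R 4.3.3 (lmFit, eBayes, 1 mean per genotype, 2-sided), with Benjamini-Hochberg adjustment over all genes, after testing on simulated data. Differences are Ppara KO minus WT with the limma SE. Correlations used 100000 permutations within genotype, or all 720 orders within 6 animals (scipy 1.17.1). The members, lists, tests and rule for named genes were chosen with earlier results of these data known. The rule names all members, up to 4 called and 3 bright uncalled genes per list, and the genes most like Ppara, Ppard and Pparg. Names beyond it (Prkaa1, Pck1, G6pc, Lpl and the neighbours of Ppard and of the other members) were added after their values were seen. Lists left out members without a cluster of 1 symbol. Deviations of same-numbered animals of the genotypes had a mean correlation of 0.028, against -0.0055 for other pairs, and 0 of 6 were over 0.1. The highest correlation of any Ppara KO with any WT animal was 0.12, so this check cannot show whether the numbers pair animals.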

Additional observations from a re-analysis of the deposited data

Results flagged for a closer look

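Ppard in Ppara KO animal 5 stood apart from its group: its log2 value was 5.71, the nearest other Ppara KO animal had 6.00, and the gap took 0.654 of the group's range, above Dixon's 95% critical value. It was the 1 value marked among 16 groups of 6 (8 genes in 2 genotypes), and chance marks about 1 in 20. Without this animal the Ppard difference was -1.40 (adjusted p 1.65e-05). The same animal had the highest Ppara KO value of Pparg, 6.92, without which the Pparg difference was 0.64 (limma adjusted p 0.00145).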

How the results depend on the processing

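The calls of Ppard, Pparg and Ppargc1b kept their direction and stayed under a p of 0.05 in all 23 alternatives run for each, among them the exact permutation test, other variance priors, array weights, renormalization, centring, filtering, adjustment over every cluster, single animals left out and the removal of WT 1, 3 and 5. Over these, differences ran from -1.56 to -1.37 for Ppard, from 0.64 to 0.88 for Pparg and from 0.32 to 0.53 for Ppargc1b. The number of members called higher was 1 at an adjusted p under 0.01, and also 1 when a change of at least 1.5-fold was required, where Ppargc1b dropped out. Leaving out single animals gave 2 higher and 1 lower each time. The uncalled genes stayed uncalled, except that the exact permutation test gave Rxrg an unadjusted p of 0.0411. The Ppara difference changed sign without WT 4, to -0.022. With the replicate number as a block, 2 members were higher and 1 lower, with an adjusted p of 1.04e-04 for Ppard, 0.00186 for Pparg and 0.0291 for Ppargc1b; 1 of 6 Ppara KO animals correlated best with its own number. Over all genes, 390 were called higher and 618 lower without WT 1, 3 and 5 (989 and 1279 with them), a setting with fewer samples, 418 and 652 at an adjusted p under 0.01, and 657 higher with adjustment over every cluster. The relation with Ppara stayed short of the threshold in all 20 alternatives, with r from -0.28 to 0.62 for Ppard and from -0.24 to 0.42 for Pparg; without single animals these ranges were -0.11 to 0.50 and -0.13 to 0.17.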

Other observations

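The gene order around the members was examined after their values had been seen. Over all genes 10.2% were called in either direction, and counts among 10 neighbours of a member say little about its locus. Of the 5 measured genes on either side of Ppara, 2 rose in Ppara KO livers, Pkdrej (4.95 in Ppara KO and 3.97 in WT, adjusted p 0.00190) and Gtse1 (4.88 in Ppara KO and 4.41 in WT, adjusted p 0.0125), and 1 fell, Ttc38 (7.50 in Ppara KO and 8.47 in WT, adjusted p 2.82e-05), all by limma. The 10 neighbours of Pparg had 0 calls and differences between -0.11 and 0.18. The 10 neighbours of Rxra and of Rxrb also had 0 calls. Beside Rxrg, Nuf2, a kinetochore gene, fell (3.30 in Ppara KO and 4.43 in WT, adjusted p 0.00459), as did Aldh9a1 (9.76 in Ppara KO and 10.07 in WT, adjusted p 0.0155). Ppargc1a and Ppargc1b each had 1 neighbour called lower, 9230114K14Rik and the noncoding gene Bvht.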
